A study of Mus musculus with 32 samples.

Results

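The mitochondrial ribosomal protein genes were described in mouse embryonic stem cells grown with and without a liver X receptor agonist. They were taken as every row whose gene symbol starts with Mrpl or Mrps followed by a digit, leaving out pseudogene symbols and rows at 0 in every library. This gave 78 of the 24890 gene rows. Of the 78, 51 encode proteins of the large mitoribosomal subunit, 26 encode proteins of the small subunit, and Mrps36 is now known in mammals as a component of the alpha-ketoglutarate dehydrogenase complex. All 78 had enough counts to be tested, and the lowest count of any of them in any library was 320. The symbols do not cover the whole particle, because several mitoribosomal proteins carry other names. The cells were E14, a wild-type mouse embryonic stem cell line, kept on gelatin in serum with leukemia inhibitory factor, 3 µM CHIR99021, a GSK3 inhibitor, and 1 µM PD0325901, a MEK inhibitor. In NrESC the medium also held 10 µM T0901317, which activates the liver X receptors, and in ESC, the control, it did not. Polyadenylated RNA was sequenced from each arm at passages 0, 2, 4, 6, 8, 10, 12 and 14, with 2 libraries at each, which made 16 groups and 32 libraries. A single line was used, and nothing in the labels tells if both libraries of each group were grown apart, so p-values measure the spread between these samples only. How long NrESC had been treated at passage 0 is not given.

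Mitoribosomes translate the few proteins encoded by mitochondrial DNA, all of them subunits of the respiratory chain and the ATP synthase. Their RNA is made inside the organelle, whereas every one of their proteins is encoded in the nucleus, made in the cytosol and imported. Compared with bacterial ribosomes the mammalian particle has lost RNA and gained proteins, so some subunits have a bacterial counterpart and others occur only in mitochondria. NRF1 and the ETS factor GABPA are known activators of nuclear genes for mitochondrial proteins, and YY1, MYC and cyclic-AMP response element (CRE) binding factors have been linked to them as well. Embryonic stem cells make strong use of glycolysis, and mitochondrial mass and respiration change when they differentiate.

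Library totals ran from 25062538 to 50463483 counts in NrESC and from 24989651 to 45818061 in ESC. The known liver X receptor targets Abca1 and Abcg1, both cholesterol exporters, had log2 fold changes of 3.10 and 4.18, NrESC over ESC in the mean of 8 passages, and were higher in NrESC at 8 of 8 passages. The 7 stem cell markers were all present in both arms, and 2 were called higher and 5 lower in NrESC, or 1 and 4 with passage as the unit. Pou5f1 had 2280 TPM in NrESC and 2131 TPM in ESC, Nanog 912 and 1261 TPM, and Sox2 228 and 286 TPM, in the same order. The log2 fold changes were 0.15 for Pou5f1, -0.45 for Nanog, -0.32 for Sox2, -0.32 for Zfp42 and -0.17 for Tdgf1. The NrESC libraries of passage 8 stood apart. Their summed stem cell markers were 4019 and 4028 TPM, against 4513 to 5534 TPM at the other NrESC passages and 5484 to 5485 TPM in ESC at passage 8. The 5 primitive endoderm markers summed to 9.86 and 9.87 TPM in those 2 libraries, against at most 5.74 TPM in the other NrESC libraries and 5.71 TPM in ESC. The 5 trophectoderm markers summed to 23.7 to 45.3 TPM in NrESC, highest at passage 8, and 21.7 to 34.8 TPM in ESC, and most of this sum was Tfap2c, at 29.2 TPM in NrESC and 26.5 TPM in ESC. These markers differed in direction. Tfap2c had a log2 fold change of 0.16 in the mean and 0.52 at passage 8, both called. Krt7 had 0.36 and 0.89, neither called, and Elf5 had too few counts to be tested. Cdx2 and Gata3 were lower in NrESC, at 0.65 and 0.285 TPM, against 1.59 and 1.11 TPM in ESC. Their log2 fold changes were -1.36 and -1.75 in the mean and -1.02 and -1.71 at passage 8. The 7 fibroblast markers summed to 3.63 to 11.1 TPM in NrESC, highest at passage 8, and to 3.26 to 9.70 TPM in ESC, and Lum was at 0 in all 32 libraries. The part of these cells and of this library group in the passage 8 results was not tested, and the main counts over passages are also given without it.

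The stretches in front of the members' start sites were searched for 6 short motifs. Of the 78 symbols, 69 matched a RefSeq promoter on GRCm38.p6, and the 250 bases before the start were read on both strands. Motifs searched were GCGCATGCG for NRF1, CCGGAAG for ETS factors such as GABPA, AAGATGGC for YY1, CACGTG (the E-box) for MYC-type factors, TGACGTCA for CRE factors, and TATAAA. The NRF1 letters read nearly the same on both strands, so 1 stretch of GCGCATGCGC counts as a match on each. NRF1 letters stood in 7 of 69 member promoters, or 10.1%, against 2.92% of the 11722 promoters of genes tested. ETS letters stood in 17 member promoters, or 24.6%, against 12.9%, and YY1 letters in 4, or 5.80%, against 1.97%. For the E-box the shares were 7.25% and 8.42%, for the CRE 2.90% and 2.71%, and for TATAAA 5.80% and 6.40%. In 36 member promoters none of the 6 was found in this window. A match is a string of letters and not a measured binding site.

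The promoters of 6 members are printed because they show the range of these windows, from the 2 members with the highest fold changes and no match to the member with the most NRF1 letters. All are 250 bases before the RefSeq start, on GRCm38.p6, in lower case with the searched motifs in capitals on whichever strand they were found. Mrpl23 lies at chr7:142532782-142533031 on the plus strand and Mrpl14 at chr17:45686099-45686348 on the plus strand. Mrpl18 lies at chr17:12916092-12916341 on the minus strand with 1 ETS match, and Mrpl49 at chr19:6057756-6058005 on the minus strand with 1 CRE match. Mrpl17 lies at chr7:105811088-105811337 on the minus strand with 1 NRF1 and 1 ETS match. Mrpl32 lies at chr13:14613038-14613287 on the minus strand with 3 NRF1 matches in 2 places and 1 YY1 match.
Mrpl23: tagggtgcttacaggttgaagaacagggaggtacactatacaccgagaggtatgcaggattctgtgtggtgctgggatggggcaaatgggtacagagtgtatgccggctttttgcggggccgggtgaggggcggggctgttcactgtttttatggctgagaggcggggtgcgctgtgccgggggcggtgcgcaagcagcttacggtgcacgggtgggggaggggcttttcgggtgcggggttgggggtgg
Mrpl14: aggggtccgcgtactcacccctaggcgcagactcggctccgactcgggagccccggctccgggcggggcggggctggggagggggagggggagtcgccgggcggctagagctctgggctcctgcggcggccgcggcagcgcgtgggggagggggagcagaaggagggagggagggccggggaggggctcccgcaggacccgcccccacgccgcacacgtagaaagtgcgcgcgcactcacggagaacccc
Mrpl18: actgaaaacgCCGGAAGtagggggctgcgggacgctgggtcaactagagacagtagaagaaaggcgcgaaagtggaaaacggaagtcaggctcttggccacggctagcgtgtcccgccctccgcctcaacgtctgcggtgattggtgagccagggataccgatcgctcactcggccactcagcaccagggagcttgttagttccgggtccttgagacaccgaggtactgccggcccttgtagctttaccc
Mrpl49: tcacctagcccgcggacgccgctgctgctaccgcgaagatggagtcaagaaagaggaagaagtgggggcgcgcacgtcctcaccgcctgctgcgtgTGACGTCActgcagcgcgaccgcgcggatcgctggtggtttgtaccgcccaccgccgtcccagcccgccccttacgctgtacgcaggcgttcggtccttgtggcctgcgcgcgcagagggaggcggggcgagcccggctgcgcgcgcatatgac
Mrpl17: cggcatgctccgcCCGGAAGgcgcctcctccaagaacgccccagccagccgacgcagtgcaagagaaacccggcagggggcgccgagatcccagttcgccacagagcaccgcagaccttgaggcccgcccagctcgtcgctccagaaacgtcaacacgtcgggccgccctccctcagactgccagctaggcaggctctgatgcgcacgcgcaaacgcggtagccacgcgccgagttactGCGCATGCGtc
Mrpl32: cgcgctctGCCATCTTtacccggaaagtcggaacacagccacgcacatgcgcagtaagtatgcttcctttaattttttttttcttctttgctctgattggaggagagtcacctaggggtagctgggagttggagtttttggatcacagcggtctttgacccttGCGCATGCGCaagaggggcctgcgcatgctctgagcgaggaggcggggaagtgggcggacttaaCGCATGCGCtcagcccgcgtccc

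In level, the members spanned from 8.35 TPM for Mrpl48 to 449 TPM for Mrpl52 as means over 32 libraries. TPM is a unit corrected for transcript length that lets genes be compared. Mrpl52, a mitochondria-specific protein of the large subunit, was the highest at 471 ± 35.0 TPM in NrESC and 427 ± 24.7 TPM in ESC (SD over 8 passage means). It was followed by Mrpl42 at 403 ± 12.5 TPM in NrESC and 420 ± 20.3 TPM in ESC. Mrpl12, the stalk protein that contacts the translation factors, had 246 ± 36.1 TPM in NrESC and 243 ± 32.2 TPM in ESC, so that it and Mrpl42 kept apart while each differed little between the arms. At the other end were Mrpl48 at 8.13 ± 0.725 TPM in NrESC and 8.58 ± 0.803 TPM in ESC, Mrpl41 at 17.0 ± 1.89 and 16.8 ± 1.56 TPM, and Mrps25 at 19.98 ± 0.641 and 20.1 ± 0.903 TPM, NrESC given before ESC in each pair. Over all 32 libraries 27 members averaged over 100 TPM and 14 under 50 TPM.

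Summed, the members made 7856 ± 316 TPM in NrESC and 7991 ± 249 TPM in ESC, and 0.411% of the counts in NrESC against 0.420% in ESC. The large-subunit sum was 2.21 ± 0.0317 times the small-subunit sum in NrESC and 2.21 ± 0.0411 times in ESC. The lowest passage mean of this ratio was at passage 8 in both arms, at 2.15 in NrESC and 2.16 in ESC. Any difference in these bulk libraries may come from the make-up of the cell population or from the RNA per cell, which cannot be told apart. In the median the members varied less than all genes. Their median SD on the log2 scale was 0.0521 between the 2 libraries of a group, 0.118 between NrESC passages and 0.107 between ESC passages. Over 14458 genes with counts in every library these medians were 0.0696, 0.183 and 0.155. Those genes were not matched to the members in level, so the part of level in this difference was not tested.

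Averaged over the 8 passages, the members differed between NrESC and ESC in both directions and by small amounts. By edgeR's quasi-likelihood test with Benjamini-Hochberg adjustment over 15036 genes at 0.05, 21 rose, 32 fell and 25 did not pass in NrESC relative to ESC. This test called 78.9% of all genes, 39.1% higher and 39.8% lower, so the members' 53 calls are a smaller share than in the genome at large. Their median log2 fold change was -0.02, against -0.0014 for all genes, and 44 of 78 lay within 0.1 of 0. Only 4 lay beyond 0.25 on the log2 scale (Mrpl23, Mrpl14, Mrps16 and Mrps31), or 5.13%, against 40.3% of all genes and 24.9% of the 8135 genes in the same TPM range. The median size of the change was 0.0855 for the members, 0.190 for all genes and 0.136 for genes in that TPM range. No member reached a 2-fold difference at any passage. The passages differed from each other more than the libraries within them. With passage as the unit (7 residual degrees of freedom), 13 members rose and 20 fell, all 33 being among the 53, while this fit called 28.3% of all genes higher and 27.2% lower. Of the members called in the mean, 11 were higher and 14 lower at 8 of 8 passages. These 25 are 32.1% of the members, and 38.1% of all genes had the same sign at 8 of 8.

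**Figure D1:**
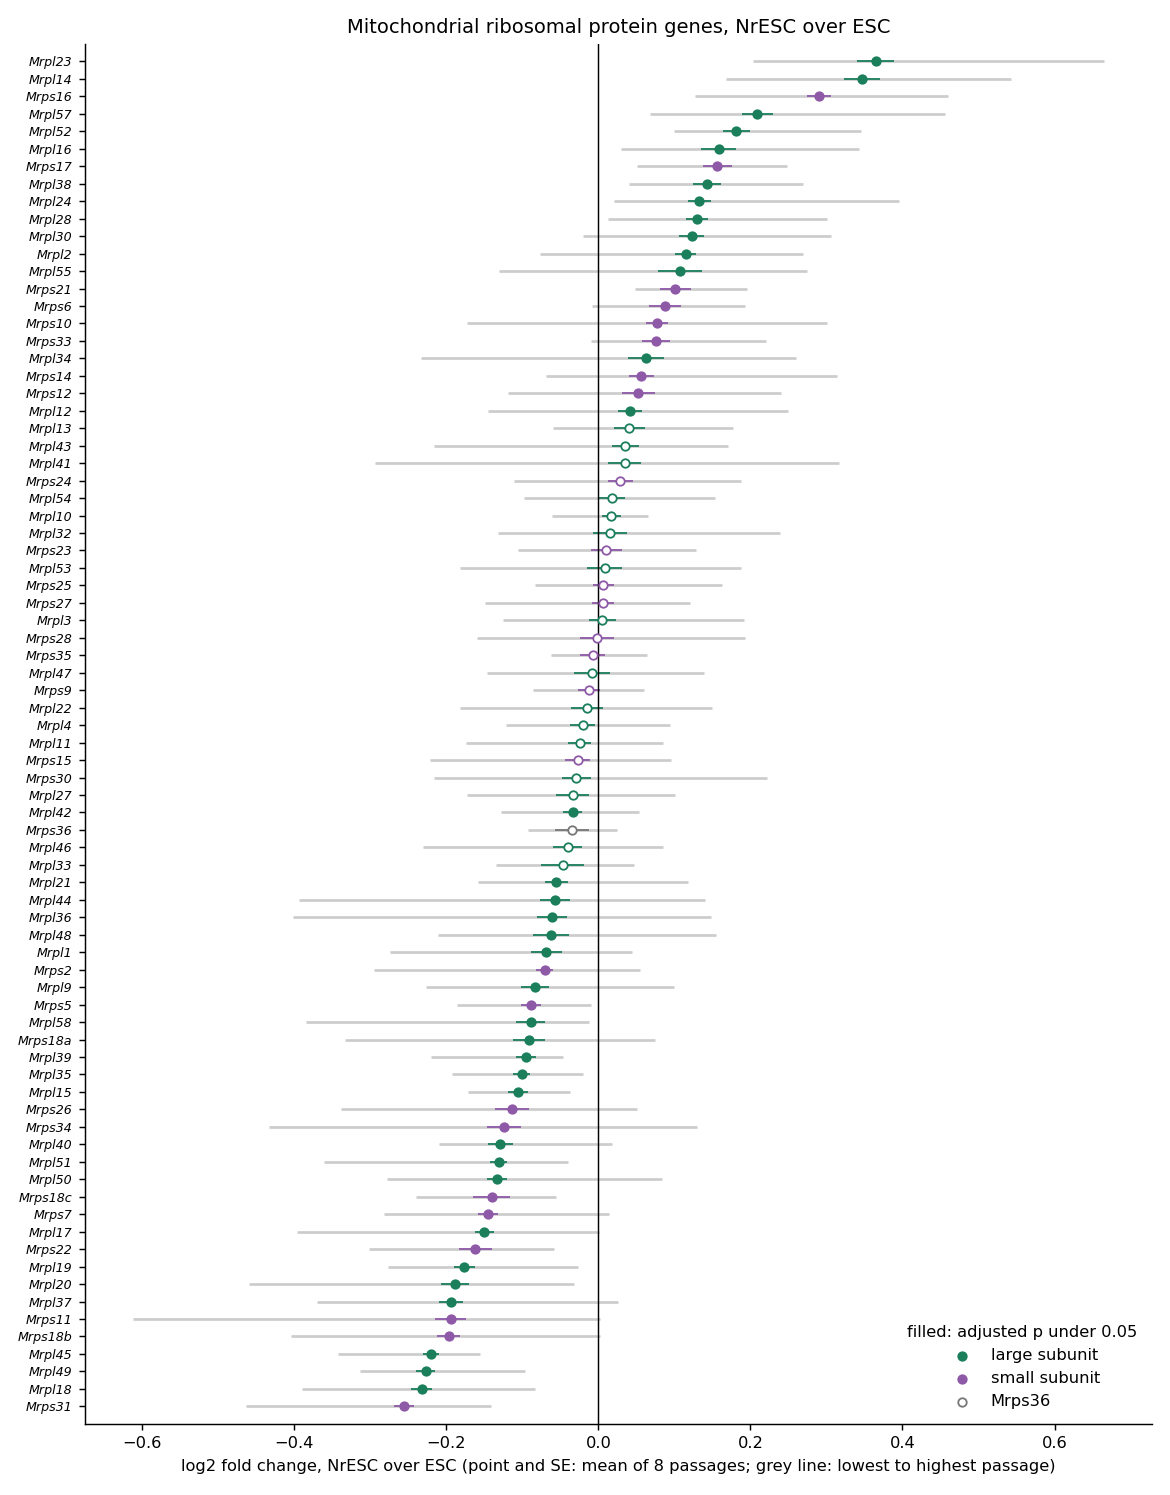
Log2 fold change, NrESC over ESC, of the 78 members, one per line and sorted. Points are the mean of 8 passages with the SE of the fit, grey lines run from the lowest to the highest passage, and filled points passed an adjusted p of 0.05. Mrpl23, Mrpl14 and Mrps16 stand at the top, Mrps31, Mrpl18 and Mrpl49 at the bottom, and 44 members lie within 0.1 of 0.

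The clearest rises were in Mrpl23, Mrpl14 and Mrps16, all counterparts of bacterial ribosomal proteins. Mrpl23, which in the particle lies at the exit of the peptide tunnel, ran from 66.2 to 94.4 TPM over 16 NrESC libraries with a median of 78.4, and from 54.1 to 70.6 TPM over 16 ESC libraries with a median of 63.7. The arms overlapped over all libraries but not at any single passage, where both NrESC libraries were above both ESC libraries in CPM at 8 of 8. The log2 fold change was 0.36 with an SE of 0.02 (1.29-fold; edgeR quasi-likelihood adjusted p = 3.79e-17, and 2.50e-04 with passage as the unit). A pseudogene copy, Mrpl23-ps1, shares 51.7% of the 50-base words of Mrpl23 and is not among the gene rows. How reads from the shared stretches were counted is not given.

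Mrpl14, the large-subunit protein to which the assembly factor MALSU1 binds, ran from 88.0 to 118 TPM in NrESC with a median of 103, and from 68.0 to 96.9 TPM in ESC with a median of 83.5. Its log2 fold change was 0.35 with an SE of 0.02 (edgeR adjusted p = 5.00e-17, and 2.25e-04 with passage as the unit). Mrps16, a small-subunit protein, ran from 237 to 275 TPM in NrESC with a median of 256, and from 194 to 246 TPM in ESC with a median of 205. Its log2 fold change was 0.29 with an SE of 0.02 (edgeR adjusted p = 2.01e-20, and 1.12e-04 with passage as the unit). At each of the 8 passages both genes had their NrESC libraries above their ESC libraries, although the arms overlapped when passages were pooled. Without passage 8 the log2 fold changes of Mrpl23, Mrpl14 and Mrps16 were 0.34, 0.35 and 0.27, and over all members 23 rose and 31 fell. The shares of all genes that rose and fell without passage 8 are not given.

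Next came Mrpl57 and Mrpl52, both found only in mitochondria, and Mrpl16, which has a bacterial counterpart. Mrpl57 averaged 26.4 ± 0.760 TPM in NrESC and 23.1 ± 1.29 TPM in ESC, Mrpl52 the values given above, and Mrpl16 47.0 ± 3.02 TPM in NrESC and 42.7 ± 2.43 TPM in ESC. Their log2 fold changes were 0.21, 0.18 and 0.16, with adjusted p of 0.00151, 0.00138 and 0.00783 when passage was the unit of edgeR's test. All 3 were higher at 8 of 8 passages in the means, and Mrpl57 and Mrpl16 had overlapping libraries at 2 passages and 1 passage, in that order.

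The members that fell furthest were Mrps31, Mrpl18, Mrpl49 and Mrpl45. Mrps31, a mitochondria-specific small-subunit protein, ran from 73.3 to 101 TPM in NrESC with a median of 95.5, and from 104 to 127 TPM in ESC with a median of 110. The NrESC libraries were below the ESC libraries at every passage. This was a log2 fold change of -0.26 with an SE of 0.01 (edgeR adjusted p = 5.44e-21, and 2.45e-04 with passage as the unit). Without passage 8, where it was lowest, the value was -0.22.

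Mrpl18, a counterpart of the bacterial protein that binds the ribosomal RNA of the central protuberance, ran from 171 to 247 TPM in NrESC with a median of 217, and from 231 to 289 TPM in ESC with a median of 254. Its log2 fold change was -0.23 with an SE of 0.01 (edgeR adjusted p = 1.12e-19, and 3.45e-04 with passage as the unit). Only the highest NrESC libraries, those of passage 6 and passage 10, reached into the ESC range.

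Mrpl49, a mitochondria-specific large-subunit protein, ran from 71.4 to 79.8 TPM in NrESC with a median of 75.5, and from 77.8 to 98.6 TPM in ESC with a median of 90.1. On the TMM-scaled CPM scale, which is the one used within a gene, it was the only member whose 16 NrESC libraries all lay below the 16 ESC libraries. In TPM the library ranges of Mrpl49 overlapped and those of Mrps31 did not, so which member separates depends on the scale. On the CPM scale 1.32% of all genes were separated this way, and 1.66%, with no member among them, had every NrESC library above. Its log2 fold change was -0.23 with an SE of 0.01 (edgeR adjusted p = 3.65e-20, and 1.66e-04 with passage as the unit).

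Mrpl45, which anchors the mitoribosome to the inner membrane near the tunnel exit, averaged 115 ± 7.03 TPM in NrESC and 135 ± 4.50 TPM in ESC. NrESC over ESC gave a log2 fold change of -0.22 with an SE of 0.01 (edgeR adjusted p = 4.43e-22, and 1.00e-04 with passage as the unit), and it was lower at 8 of 8 passages. Mrps18b and Mrps11 had log2 fold changes of -0.20 and -0.19 and were lower at 7 of 8 passages. Mrps11, a small-subunit protein with a bacterial counterpart, owed much of this to passage 8, since its value was -0.13 without that passage.

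**Figure D2:**
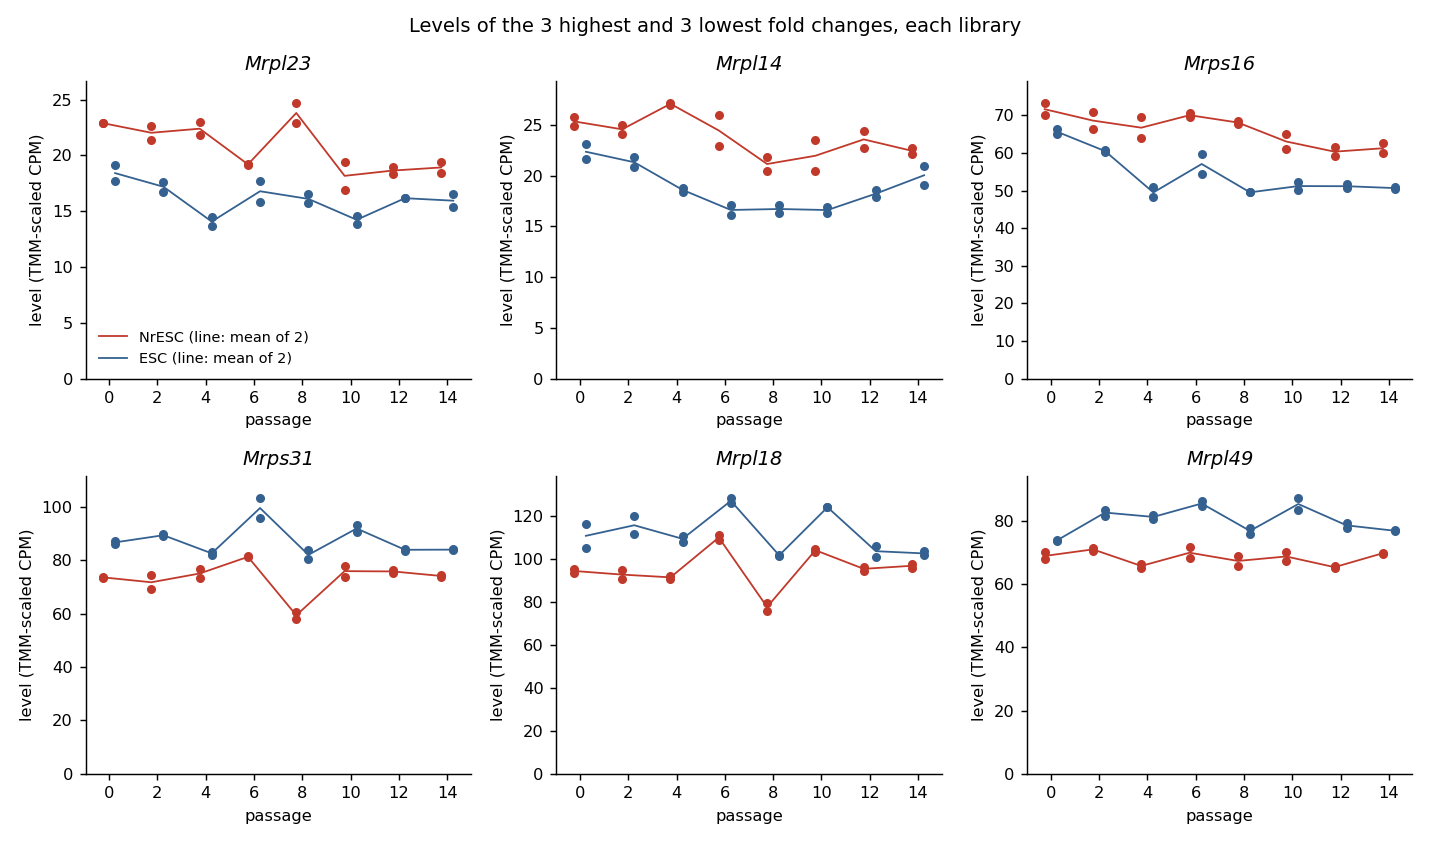
Level in TMM-scaled CPM against passage for the 3 highest and 3 lowest fold changes, 1 point per library and lines through the mean of 2, NrESC in red and ESC in blue, with axes starting at 0. NrESC lies above ESC at each passage for Mrpl23, Mrpl14 and Mrps16, and below it for Mrps31, Mrpl18 and Mrpl49.

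The 2 subunits differed little in direction. In the large subunit 13 of 51 rose and 22 fell, with a median log2 fold change of -0.03, and in the small subunit 8 of 26 rose and 10 fell, with a median of -0.01. Among the 46 members with a bacterial counterpart 17 rose and 15 fell, with a median of -0.01. Among the 31 that occur only in mitochondria 4 rose (Mrpl57, Mrpl52, Mrpl38 and Mrps33) and 17 fell, with a median of -0.06. With passage as the unit these counts were 10 and 10 for those with a bacterial counterpart, and 3 and 10 for the mitochondria-specific ones. The difference between these classes was not tested. Of all genes, 39.1% rose and 39.8% fell, or 28.3% and 27.2% with passage as the unit. By place in the particle, 2 of 8 tunnel-exit proteins rose and 4 fell, 2 of 8 central protuberance proteins rose and 3 fell, and of the 3 stalk proteins only Mrpl12 passed, at 0.04. The call for Mrpl12 was lost with passage as the unit (edgeR adjusted p = 0.373).

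The 3 Mrps18 paralogs, which sit in different places of the particle, had the same sign. Mrps18a, a protein of the large subunit despite its name, averaged 73.6 ± 8.96 TPM in NrESC and 79.2 ± 4.54 TPM in ESC. Mrps18b averaged 92.6 ± 6.96 TPM in NrESC and 108 ± 8.44 TPM in ESC, and Mrps18c 152 ± 9.15 TPM in NrESC and 171 ± 3.59 TPM in ESC. Their log2 fold changes were -0.09, -0.20 and -0.14, and all passed edgeR's test, though Mrps18a did not with passage as the unit (adjusted p = 0.107). Mrpl58, a release factor relative that rescues stalled mitoribosomes, averaged 61.3 ± 7.78 TPM in NrESC and 69.6 ± 3.94 TPM in ESC, a log2 fold change of -0.09 that did not pass with passage as the unit (edgeR adjusted p = 0.118) and was -0.04 without passage 8. Mrps36 averaged 92.5 ± 3.33 TPM in NrESC and 96.5 ± 4.48 TPM in ESC, and its log2 fold change of -0.04 did not pass (edgeR adjusted p = 0.149). It had the lowest spread of the fold change over passages, an SD of 0.0379, followed by Mrps35 and Mrpl10.

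Passage by passage, the balance of the members moved to and fro. At passage 0, 10 rose and 12 fell in NrESC relative to ESC, against 17.6% and 14.8% of all genes. At passage 2, 9 rose and 20 fell (24.7% and 23.8% of all genes). At passage 4 more rose, 29 against 9 that fell (27.4% and 26.9%). At passage 6, 13 rose and 20 fell (23.6% and 25.1%), and at passage 8, 17 rose and 32 fell (35.2% and 34.6%). Single libraries decided some counts: without NrESC replicate 2 the calls at passage 0 were 12 in place of 22, and without ESC replicate 2 those at passage 6 were 20 in place of 33.

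Passage 10 had the most that fell, 36, with 7 that rose (27.0% and 28.5% of all genes higher and lower). At passage 12, 9 rose and 22 fell (23.1% and 24.0%), and at passage 14, 15 rose and 11 fell (19.7% and 21.3%), and these 26 calls were 16 without ESC replicate 1 and 17 without ESC replicate 2. The members' median log2 fold change was 0.05 at passage 4, -0.04 at passage 8 and -0.10 at passage 10, so even the extreme passages differed by little in the median. The NrESC over ESC difference varied among passages for 58 of 78 members by edgeR's test of the 7 contrasts together, against 69.4% of all genes, and for 41 when passage 8 was left out. The share of all genes that varied without passage 8 is not given.

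**Figure D3:**
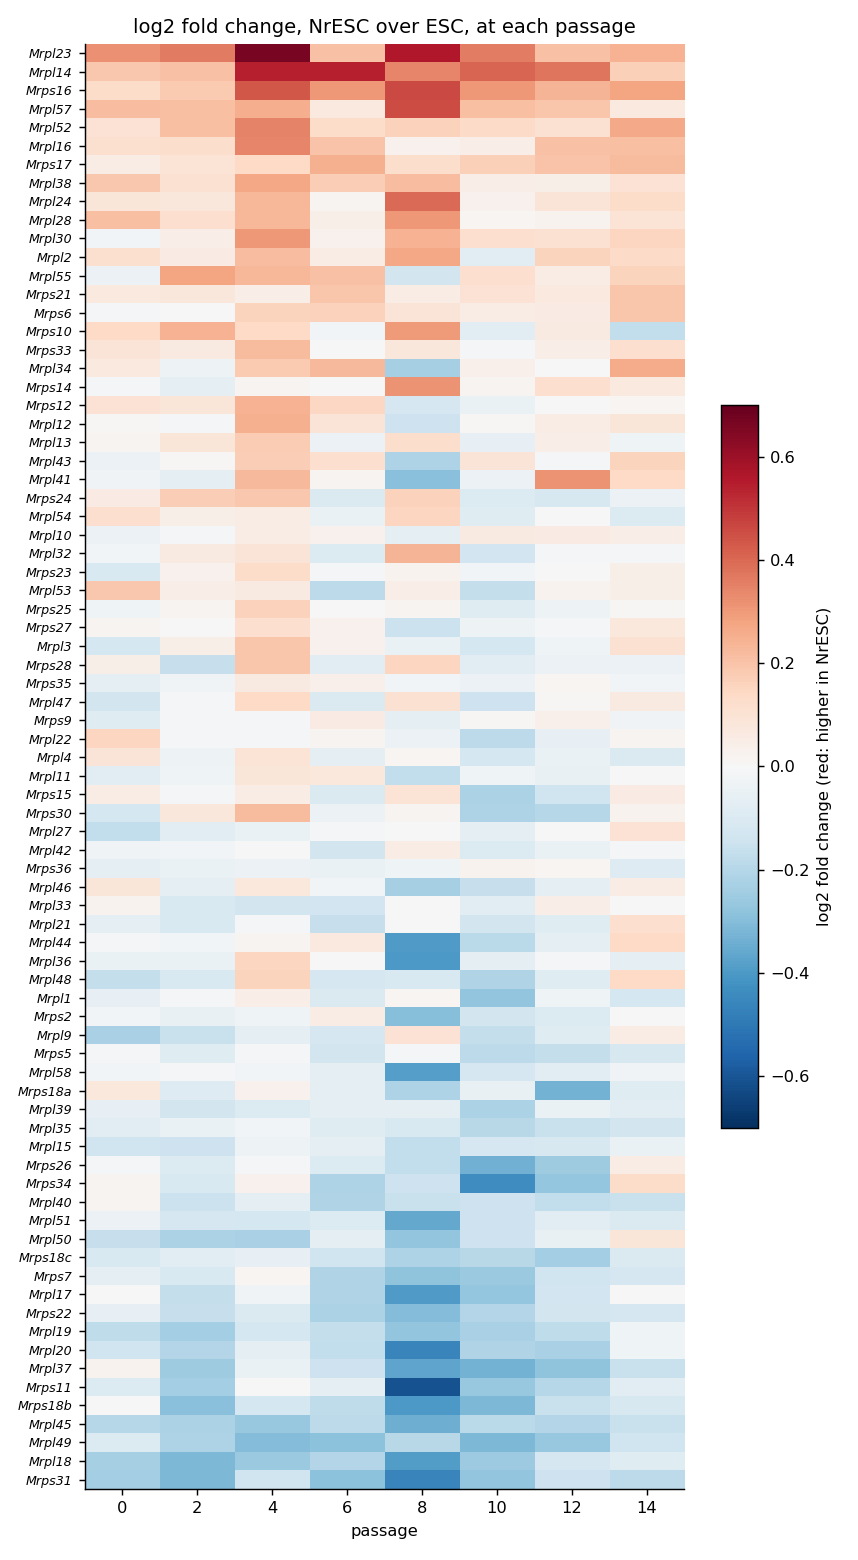
Log2 fold change, NrESC over ESC, of the 78 members (rows, sorted by their mean) at the 8 passages (columns), red where NrESC is higher and blue where it is lower. The 6 top rows and the 4 bottom rows keep 1 colour across all passages, and the middle rows turn red at passage 4 and mostly blue at passage 10.

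Single differences were widest for Mrpl23 at passage 4 and for Mrps11 at passage 8. Mrpl23 had 88.5 and 80.7 TPM in NrESC at passage 4, against 54.3 and 58.6 TPM in ESC, a log2 fold change of 0.66 with an SE of 0.07 (edgeR adjusted p = 2.11e-10). Mrps11 had 34.8 and 35.3 TPM in NrESC at passage 8, against 58.0 and 53.8 TPM in ESC, a log2 fold change of -0.61 with an SE of 0.06 (edgeR adjusted p = 5.67e-12). Mrpl20, needed early in large-subunit assembly in bacteria, had 56.3 and 56.1 TPM in NrESC, against 82.5 and 78.4 TPM in ESC, a log2 fold change of -0.46 (edgeR adjusted p = 6.37e-10). Among the members higher in NrESC at passage 8, Mrpl23 had 94.4 and 86.8 TPM in NrESC, against 62.7 and 65.7 TPM in ESC, and Mrpl57 had 28.7 and 27.2 TPM in NrESC, against 21.96 and 20.2 TPM in ESC. Their log2 fold changes were 0.56 and 0.46, that of Mrps16 was 0.46 and that of Mrps31 was -0.46, so the members spread in both directions in these libraries.

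Within each arm, passage 8 was then compared with the mean of passages 6 and 10, a choice made because the NrESC libraries of passage 8 were known to stand apart. In NrESC 11 members were higher and 46 lower at passage 8, against 36.9% and 32.8% of all genes. In ESC none was higher by edgeR's test, adjusted or at an unadjusted p of 0.05, and 48 were lower, against 22.4% and 22.3% of all genes, and 33 members were lower in both arms. The share of all genes lower in both arms is not given. The steps of the 78 members ran from -0.66 to 0.36 in NrESC and from -0.34 to 0.08 in ESC. The step differed between the arms for 24 members in the positive and 22 in the negative direction (24.4% and 25.2% of all genes). Mrps11 had the lowest step in NrESC, -0.66, against -0.21 in ESC, and Mrps10 the highest, 0.36, against 0.02 in ESC, both with a difference between the arms that passed (edgeR adjusted p = 1.48e-06 and 3.10e-07).

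The dip at passage 8 in ESC was part of a zigzag over passages 4 to 12. Passages 4, 8 and 12 were compared with passages 6 and 10, a grouping chosen after the data were seen. Passages 0, 2 and 14 were left out. Relative to each gene's mean over 16 groups, the members' median in ESC was -0.04 at passage 12 and -0.08 at passage 14, so it did not rise again. In NrESC it was -0.07 and -0.05, and passage 10, at -0.05, lay below passage 4, at -0.01. In NrESC 9 members were higher and 44 lower at passages 4, 8 and 12 (29.9% and 27.5% of all genes), and in ESC none was higher by edgeR's test (1 at an unadjusted p of 0.05) and 63 were lower (25.1% and 25.9%), with 41 lower in both arms. With passage 8 left out, passages 4 and 12 over 6 and 10 gave 3 higher and 29 lower in NrESC (17.5% and 17.3% of all genes) and 1 higher and 62 lower in ESC (22.5% and 24.1%), with 27 lower in both. With or without passage 8, the share of all genes lower in both arms is not given. Mrpl12 showed the zigzag in both arms, at -0.26 in NrESC and -0.26 in ESC on the log2 scale. In TPM, Mrpl12 had 180 and 184 in NrESC at passage 8, with 264 and 269 at passage 6 and 245 and 245 at passage 10, and in ESC 205 and 214 at passage 8, with 264 and 241 at passage 6 and 238 and 250 at passage 10. No handling day or sequencing batch is labelled, so neither could be set beside this pattern, and its cause was not tested.

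Over the 8 passages as a whole most members drifted down in both arms. The medians of 2 related gene sets were also lower at passage 14 than at passage 0. Relative to each gene's mean over 16 groups, the members' median log2 CPM went from 0.12 at passage 0 to -0.05 at passage 14 in NrESC. In ESC it went from 0.11 to -0.08. For cytosolic ribosomal protein genes it went from 0.09 to -0.06 in NrESC and 0.10 to -0.10 in ESC. For respiratory chain and ATP synthase genes it went from 0.08 to -0.04 and 0.04 to -0.08. In NrESC these 2 sets did not fall steadily, since their medians were highest at passage 8, at 0.13 and 0.11. Their slopes are not given. The slope in log2 CPM per passage number was below 0 for 74 members in NrESC and 70 in ESC. It passed edgeR's test in the negative direction for 54 in NrESC and 53 in ESC, with 40 in both, and in the positive direction for 1 in each, Mrpl50 in NrESC and Mrps5 in ESC, while 31.3% of all genes fell and 28.6% rose in NrESC and 28.2% fell and 27.2% rose in ESC. Without passage 8 the falling slopes that passed were 50 in NrESC and 54 in ESC. Neither for this count nor for slopes that fell in both arms is the share of all genes given. With passage as the unit (12 residual degrees of freedom) 1 falling slope passed edgeR's test in NrESC, that of Mrps24, and none in ESC, while 21 in NrESC and 15 in ESC had an unadjusted p under 0.05. The slopes themselves were small: Mrpl12 had -0.0311 in NrESC and -0.0306 in ESC per passage number, and Mrps24 -0.0364 in NrESC and -0.0205 in ESC. The difference of the slopes passed for 5 members in the positive and 11 in the negative direction, against 11.3% and 14.2% of all genes, and for none with passage as the unit of edgeR's test, adjusted or not.

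The members were set beside the cytosolic ribosomal protein genes and the genes of the respiratory chain and ATP synthase, and the medians were furthest apart in NrESC at passage 8. For each gene the log2 CPM of a group was taken relative to the gene's mean over the 16 groups. The members' median was -0.13 in NrESC at passage 8, the lowest of any group, and -0.07 in ESC at passage 8. For 76 cytosolic ribosomal protein genes the medians were 0.13 in NrESC and -0.06 in ESC at passage 8, and for the respiratory chain and ATP synthase genes 0.11 in NrESC and -0.09 in ESC. In ESC at passage 10 the members had 0.04, the cytosolic ribosomal protein genes -0.07 and the respiratory chain and ATP synthase genes -0.09. NrESC at passage 8 was the lowest of the 16 groups for 35 of 78 members. The same count over all genes is not given, so this is no measure of how the members differ from other genes. Between NrESC and ESC at passage 8, 61 of 76 cytosolic ribosomal protein genes rose and 1 fell, and 51 of 82 respiratory chain and ATP synthase genes rose and 7 fell, while 17 of 78 members rose and 32 fell. The difference between these sets was not tested, and they share the same libraries.

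**Figure D4:**
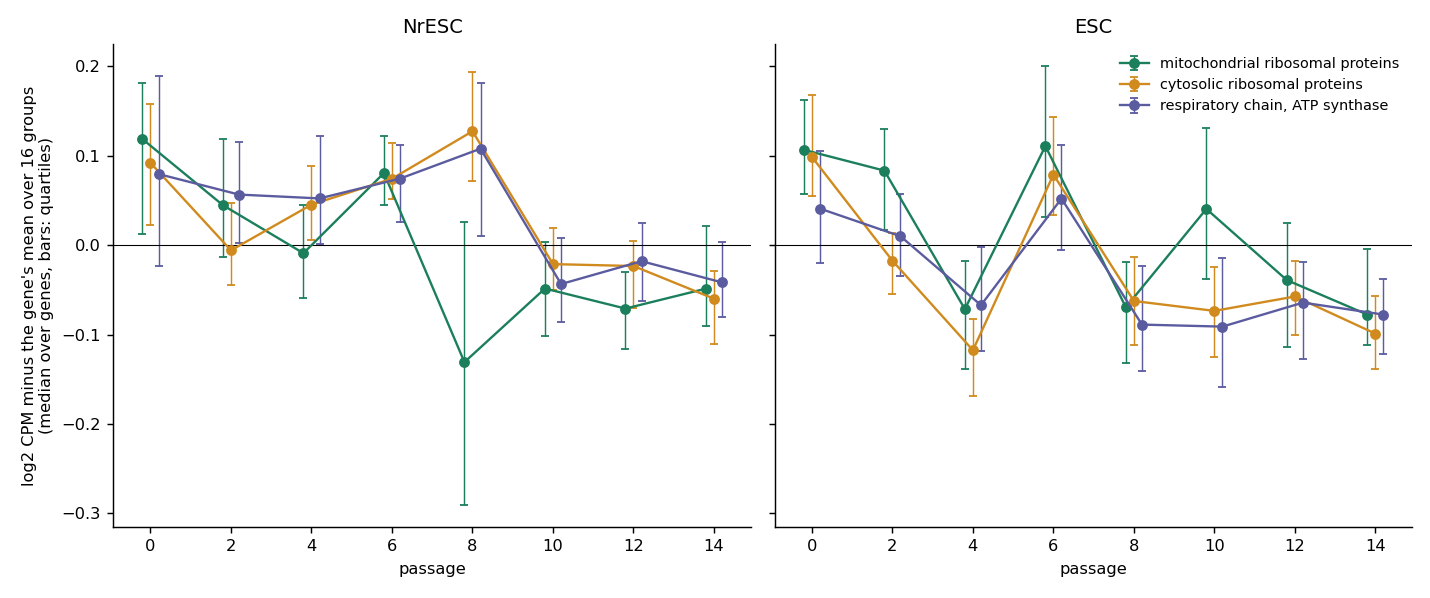
Log2 CPM of each group relative to the gene's mean over 16 groups, as the median over genes with bars for the quartiles, against passage, in NrESC (left) and ESC (right). In NrESC the mitochondrial ribosomal protein genes are lowest at passage 8, at -0.13, where the other sets are highest, at 0.13 and 0.11. In ESC the medians are furthest apart at passage 10, at 0.04 for the members and -0.07 and -0.09 for the other sets. All 3 sets rise at passage 6 in ESC.

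In the mean of 8 passages, 52 of the cytosolic ribosomal protein genes rose and 12 fell, with a median log2 fold change of 0.07, and 53 of 82 respiratory chain and ATP synthase genes rose and 13 fell, with a median of 0.06. When passages were the unit, these counts were 26 and 5 for the cytosolic and 32 and 6 for the respiratory chain set. Without passage 8 they were 42 and 14 of 76, and 43 and 15 of 81. The cytosolic ribosomal protein transcripts made up 7.37% ± 0.388 of the counts in NrESC and 6.98% ± 0.337 in ESC. Over the 16 groups, the correlation of a member's log2 CPM with the mean of the other members had a median of 0.66 and ran from 0.08 for Mrpl23 to 0.94 for Mrps27. Against the same mean, the cytosolic ribosomal protein genes had a median of 0.41 and the respiratory chain and ATP synthase genes one of 0.34. These are descriptions over 16 group means that share their libraries and scaling. Mrpl23, Mrpl57 and Mrps5 had the lowest correlations and Mrps27, Mrpl3 and Mrpl12 the highest.

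Many members start close to a gene on the opposite strand. In the GENCODE annotation of GRCm38 33 of 78, or 42.3%, had a start site within 1000 bases of that of a protein-coding gene on the opposite strand, whether or not the transcripts overlap, against 14.9% of 14296 protein-coding genes tested. Of 31 partners that were tested, 17 pairs had both genes called in the mean of 8 passages, 7 in the same direction and 10 in opposite directions. The same count over all such gene pairs is not given. Taken singly, 78.9% of all genes were called, 39.1% higher and 39.8% lower. Mrpl49, 59 bases from Fau, which encodes a cytosolic ribosomal protein fused to a ubiquitin-like one, had -0.23 while Fau had 0.04. Mrpl57, 49 bases from the kinetochore gene Ska3, had 0.21 while Ska3 had -0.15, and Mrpl51, 100 bases from the condensin gene Ncapd2, had -0.13 while Ncapd2 had 0.16.

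Among pairs that went the same way, Mrps18b had -0.20 and Ppp1r10, 45 bases away, -0.46, and Mrpl18 had -0.23 and Tcp1, a subunit of the cytosolic chaperonin, -0.11. Mrpl46 of the large and Mrps11 of the small subunit start 412 bases apart on opposite strands, with -0.04 (not called) and -0.19. The pairs named here were picked after their values were seen, and all values are log2 fold changes by edgeR.

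**Figure D5:**
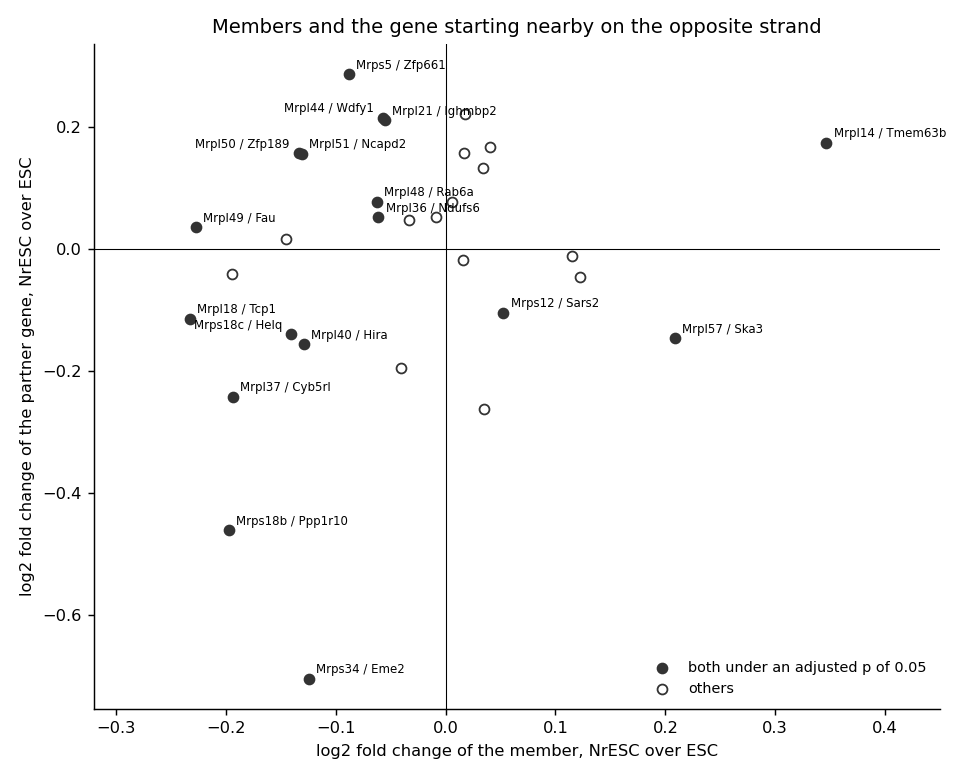
Log2 fold change, NrESC over ESC in the mean of 8 passages, of 31 members (horizontal) and of the gene that starts within 1000 bases on the opposite strand (vertical); the pair of Mrpl46 and Mrps11 appears once for each. Filled points are the 17 pairs with both genes under an adjusted p of 0.05, of which 7 lie in quadrants of equal sign and 10 in quadrants of opposite sign.

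Where start-site letters were found, the calls went both ways for most motifs. Of the 7 members with NRF1 letters none rose and 4 fell (Mrpl17, Mrpl39, Mrpl9 and Mrps18b). Of the 17 with ETS letters 3 rose and 8 fell, and of the 36 with none of the motifs 13 rose and 13 fell. For YY1 letters 1 of 4 rose and 2 fell, for the E-box 1 of 5 rose and 4 fell. For the CRE 1 of 2 rose and 1 fell, and for TATAAA 2 of 4 rose and 0 fell. Of all genes tested, with or without a motif, 39.1% rose and 39.8% fell. Among the factors whose motifs were searched, the transcripts of Nrf1, Gabpa and Yy1 were lower in NrESC. Nrf1 had 40.6 TPM in NrESC and 48.0 TPM in ESC, Gabpa 72.4 and 78.5 TPM, and Yy1 74.3 and 85.8 TPM in the same order. Their log2 fold changes were -0.21, -0.10 and -0.19 (edgeR adjusted p of 0.00193, 0.0110 and 0.0140 with passage as the unit). For the CRE, Creb1 had -0.09 and did not pass with passage as the unit (edgeR adjusted p = 0.242). Gabpb1, at -0.02, did not pass either (edgeR adjusted p = 0.586 with passage as the unit), and Atf4 rose by 0.59. Of 15 regulators of mitochondrial genes tested, 5 rose and 9 fell, or 5 and 7 with passage as the unit and 6 and 7 without passage 8. Myc had 7.44 TPM in NrESC and 16.5 TPM in ESC, and its partner Max 61.9 and 77.5 TPM. The stress factors Ddit3 and Atf5 were the highest, with log2 fold changes of 1.27 and 0.70, and Ddit3 had 3.44 at passage 8 and 0.96 in the mean without it.

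Among the proteins that work with the members, 5 further mitoribosomal proteins with other symbols were tested. Ptcd3, a small-subunit protein with RNA-binding repeats, had 113 TPM in NrESC and 153 TPM in ESC, a log2 fold change of -0.43 (edgeR adjusted p = 1.14e-32, and 4.52e-05 with passage as the unit) that was lower at 8 of 8 passages and larger in size than that of any of the 78. Chchd1 rose by 0.14 and Dap3 by 0.07, Gadd45gip1 fell by 0.07, and Aurkaip1 at -0.01 did not pass. With passage as the unit Dap3 and Gadd45gip1 no longer passed (edgeR adjusted p = 0.0513 and 0.253). Of 14 mitochondrial translation factors 6 rose and 6 fell, with Guf1, a back-translocating elongation factor, at 0.14, Tsfm, the exchange factor for Tufm, at 0.11, Pdf, the peptide deformylase, at -0.23, and Mrrf, the recycling factor, at -0.17. When passages were the unit, 1 of the 14 rose and 4 fell, and of the 4 named, Guf1 did not pass with passage as the unit (edgeR adjusted p = 0.0523).

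Of 26 factors of mitoribosome assembly and rRNA modification 11 rose and 9 fell, with a median of 0.02, and the counts were 8 and 3 when passages were the unit. The assembly GTPase Gtpbp10 had 25.5 TPM in NrESC and 20.9 TPM in ESC, a log2 fold change of 0.30, and Malsu1, which binds Mrpl14, had 84.5 and 70.4 TPM in the same order, a log2 fold change of 0.28. Mettl17 had 6.98 TPM in NrESC and 9.87 TPM in ESC, a log2 fold change of -0.48, and the rRNA methyltransferase Mrm2 had 21.1 and 26.0 TPM, a log2 fold change of -0.29. All 4 passed with passage as the unit too.

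In the list of mitochondrial transcription and RNA genes, 8 of 24 rose and 14 fell, with a median of -0.14, and the counts were 6 and 12 when passages were the unit. Hsd17b10, a subunit of mitochondrial RNase P, had 161 TPM in NrESC and 128 TPM in ESC, and Fastk 68.7 and 54.9 TPM. Fastkd5, needed to process mitochondrial messenger RNA, had 10.7 TPM in NrESC and 15.3 TPM in ESC, and Tfb2m, part of the mitochondrial transcription initiation complex, 13.4 and 16.4 TPM. Fastkd5 had a log2 fold change of -0.55 in the mean of 8 passages and -1.60 at passage 8, and -0.40 in the mean without passage 8. Genes encoded by mitochondrial DNA, which the mitoribosome translates, are not analysed here.

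Reads of some members can be shared with other genes, and whether the counting used strand is not given in the sources used here. In the annotation 33 members share exon bases with another gene, 24 of them with a gene in the table, and for 12 this covers over 10% of the exon bases. Mrps25 shares 69.8% with Nr2c2 and Mrps34 63.4% with Mapk8ip3, both on the opposite strand, Mrps34 shares a further 37.0% with Nme3 on its own strand, and the values of those members are uncertain. Of the members named for their rise or fall, Mrpl14 shares 11.2% with Tmem63b and Mrpl18 shares 10.1% with Tcp1. By sequence, 15 members share over 10% of their 50-base words with another annotated gene, and in no case is that gene in the table, among them Mrps36 (33.7%), Mrpl27 (32.4%) and Mrps18b (27.2%). Neither GC content nor transcript length tracked the fold change closely over the 78 members: Pearson's r was 0.18 for GC and -0.22 for length in the mean of 8 passages, given as a description over genes that share their libraries.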

How the data were processed

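RNA was sequenced from 32 libraries of E14 cells prepared with a poly(A)-selecting kit. The authors deposited a table of expected counts and a table of TPM per gene. The submitters' processing notes name STAR, RSEM, HTSeq 0.12.4, Cufflinks 2.2.1, DESeq2 and edgeR and the build mm9, without saying what each did; the annotation and strand setting are not given in the sources used here. Of the deposited expected counts 0.837% were fractional, and all were rounded. Genes were tested with edgeR 4.0.16 (R 4.3.3; filterByExpr over 16 groups, TMM scaling, quasi-likelihood test, 1 mean per group, 16 residual degrees of freedom), with Benjamini-Hochberg adjustment over 15036 genes at 0.05; the fit was tested on simulated data. Passage as the unit means that the 2 libraries of a group were summed. TPM from the authors were used for levels. SDs are over 8 passage means. Alternatives used DESeq2 1.42.0, limma 3.58.1 on log2(TPM + 1) and log2(TPM + 0.1), RLE size factors, no filter, a replicate block, and left-out passages or libraries. Same-numbered libraries of the arms did not deviate together (correlations from -0.019 to 0.062), so the numbers were not taken as pairs. The 2 libraries of a group differed by more than sampling noise in all 16 groups (chi-square per degree of freedom 1.71 to 3.31). GENCODE and RefSeq references on GRCm38 served names, overlaps and promoters only, and no coordinate was converted.

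Members and lists were chosen with earlier results of these data known. Members were named by rule: the 6 highest and 6 lowest called fold changes in the mean, the 3 at each end of TPM, of the slope difference, of passage 8 and of the SD over passages, and Mrpl12, Mrps36, Mrpl58 and the Mrps18 family for their role. Other lists were named by their 2 highest and 2 lowest called genes.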

Additional observations from a re-analysis of the deposited data

Results flagged for a closer look

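The NrESC over ESC difference varied among the 8 passages for 58 of 78 members by edgeR's quasi-likelihood test, against 69.4% of all genes. The step at passage 8 over passages 6 and 10 differed between NrESC and ESC for 46 members. Of all genes, 24.4% differed in the positive and 25.2% in the negative direction. The slope over passages differed between the arms for 16 members by the same test, and for none with passage as the unit. Of all genes, 11.3% passed the slope test in the positive and 14.2% in the negative direction. In log2 CPM per passage number, the NrESC minus ESC difference of slopes was -0.0203 for Mrps10, -0.0163 for Mrps18a and -0.0159 for Mrps24. It was 0.0154 for Mrpl50, 0.0135 for Mrpl27 and 0.0133 for Mrpl9. Mrps10, Mrps18a, Mrps24, Mrpl27 and Mrpl9 had falling slopes in both arms, steeper in NrESC for the first 3 and in ESC for Mrpl27 and Mrpl9, and Mrpl50 had 0.0075 in NrESC and -0.0079 in ESC. Each group has 2 libraries, too few to look for single outlying libraries within a group.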

How the results depend on the processing

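With passage as the unit, 13 members were higher and 20 lower in the mean of 8 passages, and falling slopes passed for 1 member in NrESC and 0 in ESC, with 0 slope differences; this fit was not run for steps or single passages. Without passage 0, 10 slope differences passed. DESeq2 called 18 higher and 32 lower, limma 19 and 39 with either pseudocount, RLE scaling 19 and 35, and no filter 23 and 32. The replicate block gave 21 higher and 32 lower and changed no call in the mean; same-numbered libraries had correlations of at most 0.062. Leaving out 1 library at a time gave 19 to 22 higher and 31 to 33 lower, with 12 to 23 calls at passage 0, 20 to 34 at passage 6 and 16 to 28 at passage 14. No named member reversed among those called. Depth did not limit detection of the members, whose lowest count was 320. In simulated counts, a 1.2-fold change was called for 74.0% of changed genes in the mean of 8 passages and for 45.8% at passage 8. Smaller changes were not simulated.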
